A study of Mus musculus with 6 samples.

Results

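The comparison was made between cartilage anlagen (CA) of the mouse hind limb at 13.5 dpc (days post coitum) and pre-condensed mesenchyme (PCM), the tissue that precedes them, at 11.5 dpc. It rests on 2 of the 6 arrays of the study, those whose titles name both tissues, and on each of these the same 2 RNA pools were hybridised together with the Cy3 and Cy5 dyes exchanged. Every gene measured on both arrays was taken in, which gave 18613 of the 19087 annotated genes, and genes were described by whether they moved the same way on both. Matrix genes were set apart when leading genes were picked, and the account is mainly of the other functions. Some lists below share genes with the matrix list.

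The embryos were of Swiss white mice with no genetic change or treatment in either group. The PCM pool was cut from 4 hind limbs of 11.5 dpc embryos and the CA pool from 4 hind limbs of 13.5 dpc embryos. Both were cut in the region of the future tibia and fibula. Over all 3 ages of the study 231 sections were microdissected by scalpel, and the RNA passed through 2 rounds of linear amplification before labelling. A pool is 1 sample, so the spread between embryos was not measured, no test of the difference can be made and no p-value is given. The distance of either array from the mean of both is the technical error, and it covers labelling, hybridisation and dye alone.

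Limb cartilage forms when loosely packed mesenchymal cells gather into condensations, switch on Sox transcription factors and differentiate into chondrocytes, which secrete the template of the later bone. In the middle of each template the chondrocytes leave the cell cycle, enlarge and become hypertrophic under the control of Indian hedgehog and parathyroid hormone-related peptide, while a sheath of perichondrium forms around them and gives rise to bone-forming cells. The mesenchyme of the early bud is patterned by Hox and other homeobox factors and kept dividing by signals from the overlying ectoderm.

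Each value below is the log2 ratio of 13.5 dpc over 11.5 dpc, so that 1 unit is a doubling and a negative value means a higher signal in the PCM. The array on which the 13.5 dpc pool carried Cy5 is called the first array, and the one on which it carried Cy3 the second. The authors' deposited ratios were centred on the median of each array, which was -0.12 for the first and -0.28 for the second as deposited, and a gene is the mean of its spots. A gene is said to have risen or fallen if it differed by at least 3-fold, or 1.58 in log2, in the same direction on both arrays.

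By that rule 377 of the 18613 genes rose, which is 2.03% of them, and 363 fell, which is 1.95%. The median of the risen genes was 2.70 on the first array and 2.45 on the second, and that of the fallen genes was -1.99 and -2.19. A further 1419 genes passed 3-fold on a single array. When the same difference was taken over the 12.5 dpc tissue, from the other 4 arrays of the same pools, 337 genes rose and 188 fell, 279 and 168 of them the same genes. Of all genes 13219, or 71.0%, had the same sign on both arrays, with 34.9% above 0 on both and 36.1% below 0 on both. Pearson's r between the arrays was 0.610 over genes as a description, since both arrays hold the same RNA and genes are not independent, and it was 0.782 without spots of weak signal, which are those whose deposited ratio is one of small whole numbers on at least 2 of the 6 arrays.

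How often the arrays shared a sign varied with the size of the difference and with the array it was read from. Of the 5176 genes between 0 and 0.5 on the first array 60.1% were also above 0 on the second, against 93.3% of the 164 genes at 3 or more, whose median on the second array was 3.32. Read from the second array, the share was 73.5% of the genes between 0 and 0.5, 70.7% of those between 0.5 and 1, and 81.8% of the 176 genes at 3 or more. On the side of the PCM, read from the first array, it was 83.8% of the 1520 genes between -2 and -1 and 73.0% of the 74 genes at or below -3. Genes at the line show how thin it is. Fam219a, at 1.95 and 1.59, Ltv1, at 1.65 and 1.59, and Drd4, at 1.84 and 1.59, were the last to pass on the upper side, and Tmie, at 1.70 and 1.58, the first that did not. On the lower side Lancl1, at -1.60 and -1.59, Gsk3b, at -1.59 and -1.59, and Rab33a, at -1.59 and -1.64, were just inside, and Hnrnpll, at -1.58 and -1.84, was just outside.

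**Figure D1:**
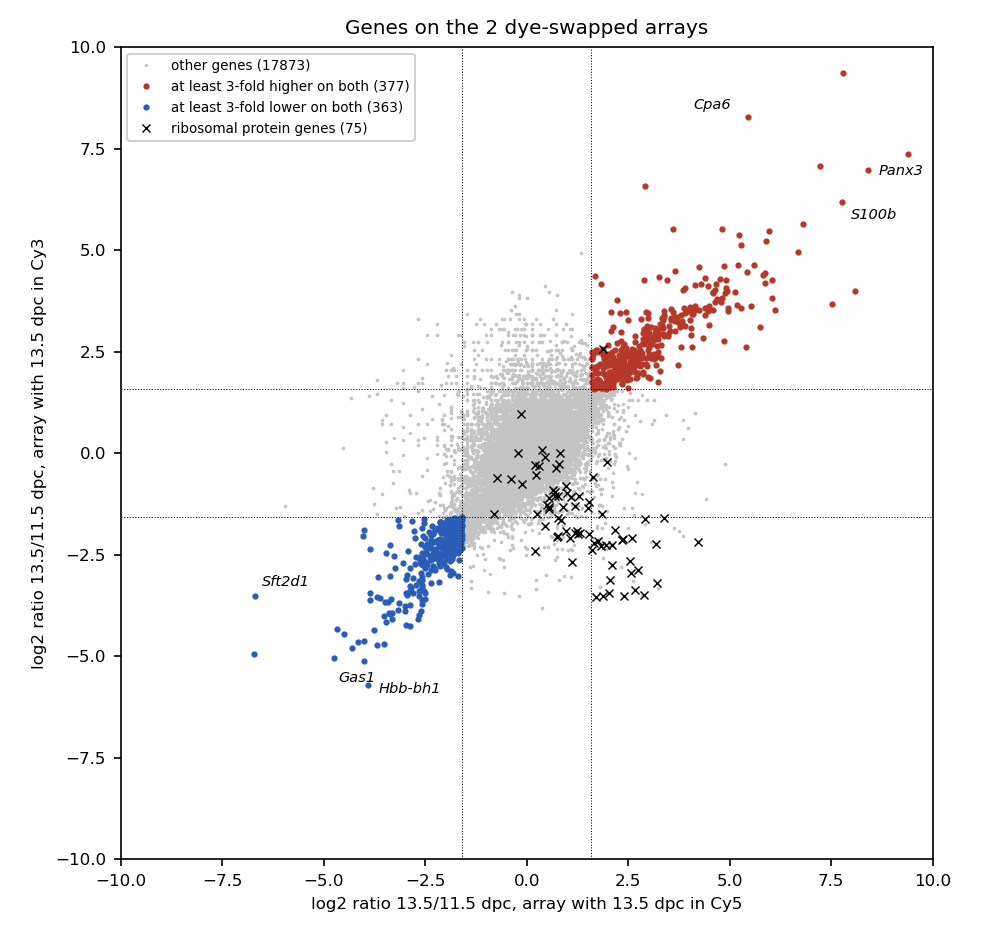
Each point is 1 gene, with the log2 ratio of 13.5 over 11.5 dpc on the array with the 13.5 dpc pool in Cy5 on the x axis and on the array with it in Cy3 on the y axis; dotted lines mark 3-fold. The 377 risen genes (red) reach further from 0 than the 363 fallen genes (blue), and most of the 75 ribosomal protein genes (crosses) lie to the lower right, above 0 on one array and below 0 on the other.

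The markers of both tissues mostly followed the labels. Of 8 cartilage markers 7 were above 0 on both arrays and 5 rose, with Hapln1, the link protein of hyaluronan aggregates, at 8.40 and 6.97, and Matn1, a cartilage matrilin, at 5.17 and 3.65. Col2a1, the main cartilage collagen, had 3.98 on the first array and 0.61 on the second, and Sox9, the factor that starts chondrogenesis, had 0.41 and -1.19, so that the arrays set a direction for neither at 3-fold and gave opposite signs for Sox9. All 8 markers of limb bud mesenchyme were below 0 on both arrays, from Prrx2, at -0.01 and -0.90, to Pcdh8, a protocadherin, at -4.30 and -4.80. Of 12 reference genes, used by most cells, 0 rose or fell. Gapdh read 0.17 and -0.14 and Hprt, the highest by its mean, 1.61 and 0.65. Polr2a, of RNA polymerase II, was the lowest at -1.39 and -1.41, Ppia read -0.93 and -1.72, and Pgk1 had opposite signs at 1.74 and -1.81.

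Other cell types of the limb moved as well, and in bulk tissue fewer cells of a type and less RNA per cell cannot be told apart. Of 10 skeletal muscle markers 6 were above 0 on both arrays and 3 rose, all of them contractile genes: Myh3, the embryonic myosin, at 3.19 and 2.89, Tnni2, a fast troponin, at 3.12 and 2.41, and skeletal actin Acta1, at 1.90 and 2.47. Among the muscle-determining factors, Myod1 had opposite signs, at 0.64 and -0.46. Myf5 was below 0 on both arrays, at -1.41 and -0.08. The other markers of this list are not named here, so these genes do not speak for all such factors. The paper describes the signal of Myod1 as near background. Spot intensities were not used here, so whether Myod1 was expressed was not tested. Of 6 endothelial markers 4 were below 0 on both arrays, and Tie1, an endothelial receptor, fell at -1.68 and -2.11. Of 6 markers of surface ectoderm 0 rose or fell, and the keratin genes Krt5 and Krt14 lay between -0.07 and 0.15 on the arrays. Of 3 tendon markers 0 rose or fell and 2 were below 0 on both arrays. The tendon factor Scx was the lowest of them, at -1.21 and -1.85, and the highest had a mean of 0.76 over both arrays. Of 3 osteoblast and perichondrium markers 2 rose, among them the bone-forming cell factor Sp7, at 3.20 and 2.63. Bglap, the osteocalcin gene of mature osteoblasts, was at -1.21 and -1.37. The part that a changing mix of these cells has in the results was not tested.

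**Figure D2:**
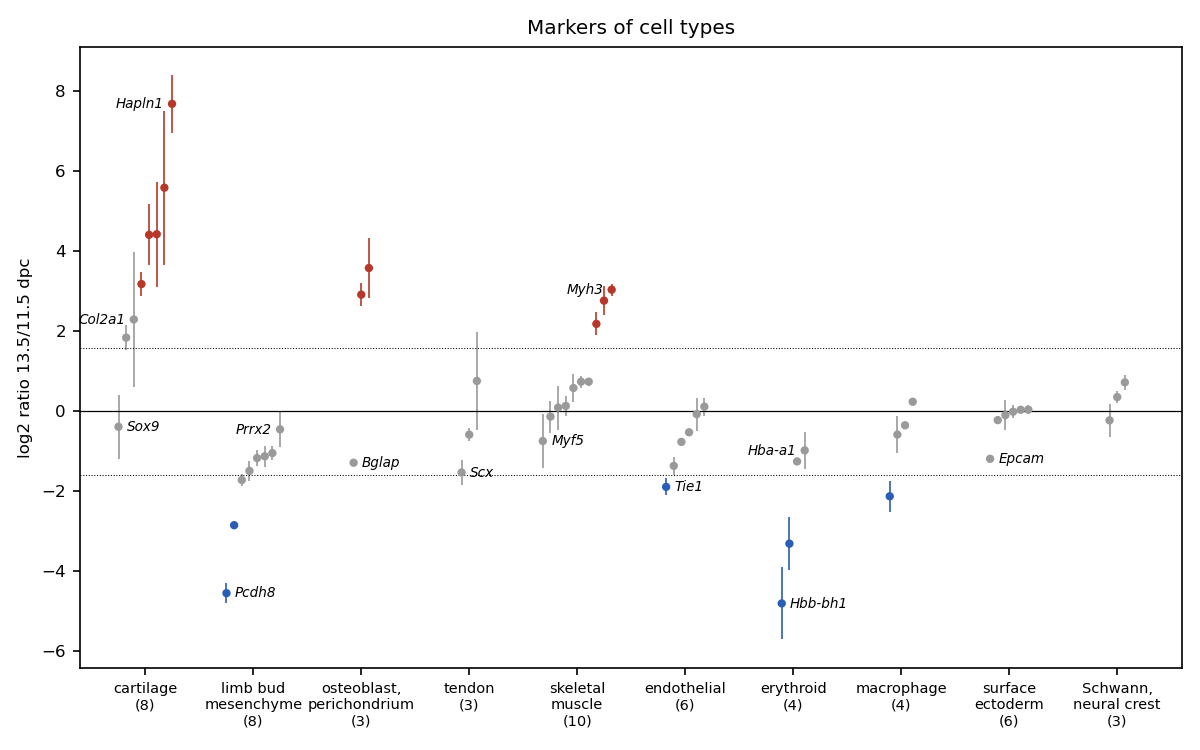
Each point is the mean log2 ratio of 13.5 over 11.5 dpc of 1 marker gene, and the line through it joins its values on both arrays; the number of measured markers stands under each cell type, genes that rose are red, genes that fell are blue and dotted lines mark 3-fold. The cartilage marker Hapln1 reaches 8.40 on the first array, all 8 mesenchyme markers lie below 0, and the embryonic globin gene Hbb-bh1 reads -5.71 on the second array.

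Olfactory and vomeronasal receptor genes, which limb cells should not use, give the level of the background. Of 996 measured, 1 rose and 0 fell, yet 435, or 43.7%, were above 0 on both arrays and 81 below, with medians of 0.26 and 0.11. A shared sign of small size therefore also occurs where no transcript is looked for. Below, counts of shared signs are read beside the 34.9% and 36.1% of all genes. Counts above 0 are also to be read beside the 43.7% of these receptors, of which 8.13% were below 0 on both arrays.

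Promoters of genes that moved most are shown because the shares with a TATA box and with a CCAAT element were unlike in the risen and the fallen genes, as a description with no test. The 100 bases before the start site were read from the RefSeq promoters of build GRCm38.p6 for the 12330 measured genes with a single entry, 225 risen and 235 fallen genes among them. The letters TATAAA, read on the strand of the gene only, were found in 7.56% of the risen, 2.55% of the fallen and 4.48% of all these genes. CCAAT on either strand, the core of the element bound by NF-Y, was found in 15.1% of the risen, 28.5% of the fallen and 21.8% of all. GGGCGG on either strand, an Sp1-type GC box, was found in 41.8%, 43.0% and 37.4%. The Sox letters AACAAT, the Runx letters TGTGGT, the forkhead letters TGTTTAC and the E-box CACGTG were each found, on either strand, in 1.78% to 6.67% of the risen genes and in 0.860% to 4.22% of all. Matches may share end letters with one another, and a match is a run of letters, not a shown site.

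The first 4 genes in each direction, by the size of their change, whose window holds the TATA box or the CCAAT element are printed 5′ to 3′ on the strand of the gene, up to the base before the start site. Capitals mark the TATA box, the CCAAT element and the GC box, the last pair of them on either strand. S100b, Anxa1, Hrc and Foxa3 rose, and Lratd1, Pcdh8, Gas1 and Jun fell.
S100b, chr10:76253736-76253835, plus strand: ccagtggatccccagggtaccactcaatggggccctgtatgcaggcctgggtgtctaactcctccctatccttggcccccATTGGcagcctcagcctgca
Anxa1, chr19:20390672-20390771, minus strand: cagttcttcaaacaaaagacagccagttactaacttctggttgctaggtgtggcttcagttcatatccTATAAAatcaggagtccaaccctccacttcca
Hrc, chr7:45335169-45335268, plus strand: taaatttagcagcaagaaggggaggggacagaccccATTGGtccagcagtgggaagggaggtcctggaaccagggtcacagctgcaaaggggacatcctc
Foxa3, chr7:19023540-19023639, minus strand: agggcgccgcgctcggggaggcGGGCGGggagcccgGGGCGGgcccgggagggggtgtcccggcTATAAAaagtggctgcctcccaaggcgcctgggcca
Lratd1, chr12:14152039-14152138, minus strand: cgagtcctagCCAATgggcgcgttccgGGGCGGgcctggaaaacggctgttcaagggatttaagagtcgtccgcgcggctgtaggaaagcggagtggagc
Pcdh8, chr14:79771313-79771412, minus strand: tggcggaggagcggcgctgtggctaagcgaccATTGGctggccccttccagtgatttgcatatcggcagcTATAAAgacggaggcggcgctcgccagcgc
Gas1, chr13:60177536-60177635, minus strand: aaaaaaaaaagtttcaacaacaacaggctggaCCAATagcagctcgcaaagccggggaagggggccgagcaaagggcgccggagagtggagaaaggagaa
Jun, chr4:95052223-95052322, minus strand: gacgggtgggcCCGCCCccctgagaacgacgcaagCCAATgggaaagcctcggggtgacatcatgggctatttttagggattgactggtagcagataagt

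In Anxa1 the TATAAA begins 32 bases before the start, and in Foxa3 36 bases before it, downstream of a pair of GC boxes. In the 4 fallen genes the CCAAT lies between 90 and 65 bases before the start, and Pcdh8 also has a TATAAA 30 bases before it. S100b and Hrc hold CCAAT as well, at 20 and 64 bases before the start, so that the element is not confined to one direction.

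The gene that rose most outside the matrix encodes a channel. Panx3, a pannexin of maturing chondrocytes and osteoblasts that releases ATP and passes calcium, had 9.39 on the first array and 7.37 on the second. Trpv4, a calcium-permeable channel that answers to osmotic and mechanical load, had 6.03 and 3.83, and lysosomal Mcoln2, of the same superfamily, had 4.25 and 4.59. Among 50 sodium and chloride channels and pumps 5 rose and 0 fell, and 29, or 58.0%, were above 0 on both arrays. The chloride channels Ano1, at 3.35 and 2.93, and Clic3, at 3.56 and 3.31, were among the risen. Aqp1, a water channel, had 3.05 and 2.35, and the potassium channel gene Kcnk6 had 2.87 and 2.70. The gap junction gene Gja1 did not take part, at -0.40 and -0.55. Of the 82 potassium channel genes measured 1 rose and 1 fell, a share near that of all genes.

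Calcium-binding proteins of the annexin and S100 families were mostly higher in the CA. Of 27 measured annexin and S100 genes 6 rose, 0 fell and 23, or 85.2%, were above 0 on both arrays. The median of the family was 0.83 on the first array and 0.81 on the second, and it kept between 0.71 and 1.22 under the alternatives tried. S100b, a calcium sensor of chondrocytes and glia, had 7.77 and 6.18, and S100a1 had 3.22 and 2.48. Anxa1, which binds membranes in the presence of calcium, had 5.27 and 5.13, and Anxa11 had 3.24 and 2.80. Anxa5 and Anxa2, known from matrix vesicles, had 2.38 and 1.05, and 1.29 and 1.09, and did not pass on both arrays. Outside the family, Hrc, a calcium-binding protein of the sarcoplasmic reticulum, had 4.76 and 4.28, beside the risen contractile genes of muscle given above, and the calmodulin-like gene Calml3 had 4.79 and 3.71.

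Of 19 genes of hypertrophy and mineralisation 10 rose, 0 fell and 17 were above 0 on both arrays. Alpl, the alkaline phosphatase that frees phosphate for mineral, had 5.87 and 4.44. Smpd3, a sphingomyelinase needed for bone mineral, had 5.88 and 4.18 over 3 spots, and Phex, a phosphate-regulating endopeptidase, had 2.86 and 2.70. The hedgehog ligand Ihh, which paces hypertrophy, had 4.08 and 3.43 over 11 spots, all of them past 3-fold on both arrays, and the receptor Pth1r, which holds hypertrophy back, had 3.28 and 2.03. The highest member was Ibsp, a sialoprotein of mineralising matrix that is also on the matrix list, at 7.79 and 9.36. Some members did not pass. Col10a1, the collagen of hypertrophic cells, had 0.79 and 1.24. The paper reports its intensity as below background level, and concludes that Col10a1 was not expressed and that the anlagen were pre-hypertrophic. Spot intensities were not used here, so whether Col10a1 was expressed was not tested. Mmp13 had 0.63 and 0.31 with weak signal, and Vegfa, which draws vessels in, had 0.14 and -0.21. Mmp9, a protease of the matrix list known from the cells that resorb hypertrophic cartilage, rose at 3.56 and 3.55, on all of its 11 spots. Vdr, the vitamin D receptor, rose outside this list, at 4.59 and 3.94, and so did Ostn, a secreted peptide of bone and muscle, at 4.80 and 5.51.

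Enzymes of lipid turnover stood beside them. Sgms2, which makes sphingomyelin, had 5.89 and 5.21, so that it and Smpd3, which splits sphingomyelin, both rose. Pla2g5, a secreted phospholipase, had 4.29 and 4.17, and the phospholipid transfer protein gene Pltp had 4.81 and 3.83. Of 84 measured genes for phospholipid and sphingolipid enzymes and fatty acid binding proteins, a family drawn up after the values of several members had been seen, 9 rose and 2 fell, with 51.2% above 0 on both arrays. Fabp3, the fatty acid binding protein of heart and muscle, had 4.12 and 3.55, while Fabp5 had -1.48 and -1.53. Csgalnact1, which starts chondroitin sulfate chains, had 4.94 and 3.98. It belongs to 48 genes that make the precursors and sulfate groups of glycosaminoglycans, of which 7 rose, 1 fell and 30, or 62.5%, were above 0 on both arrays. The sulfotransferase gene Chst1 had 3.66 and 3.01, the nucleotide-sugar carrier Slc35d1 had 2.37 and 2.61, and Hs3st1, which acts on heparan sulfate, had -2.14 and -2.55.

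**Figure D3:**
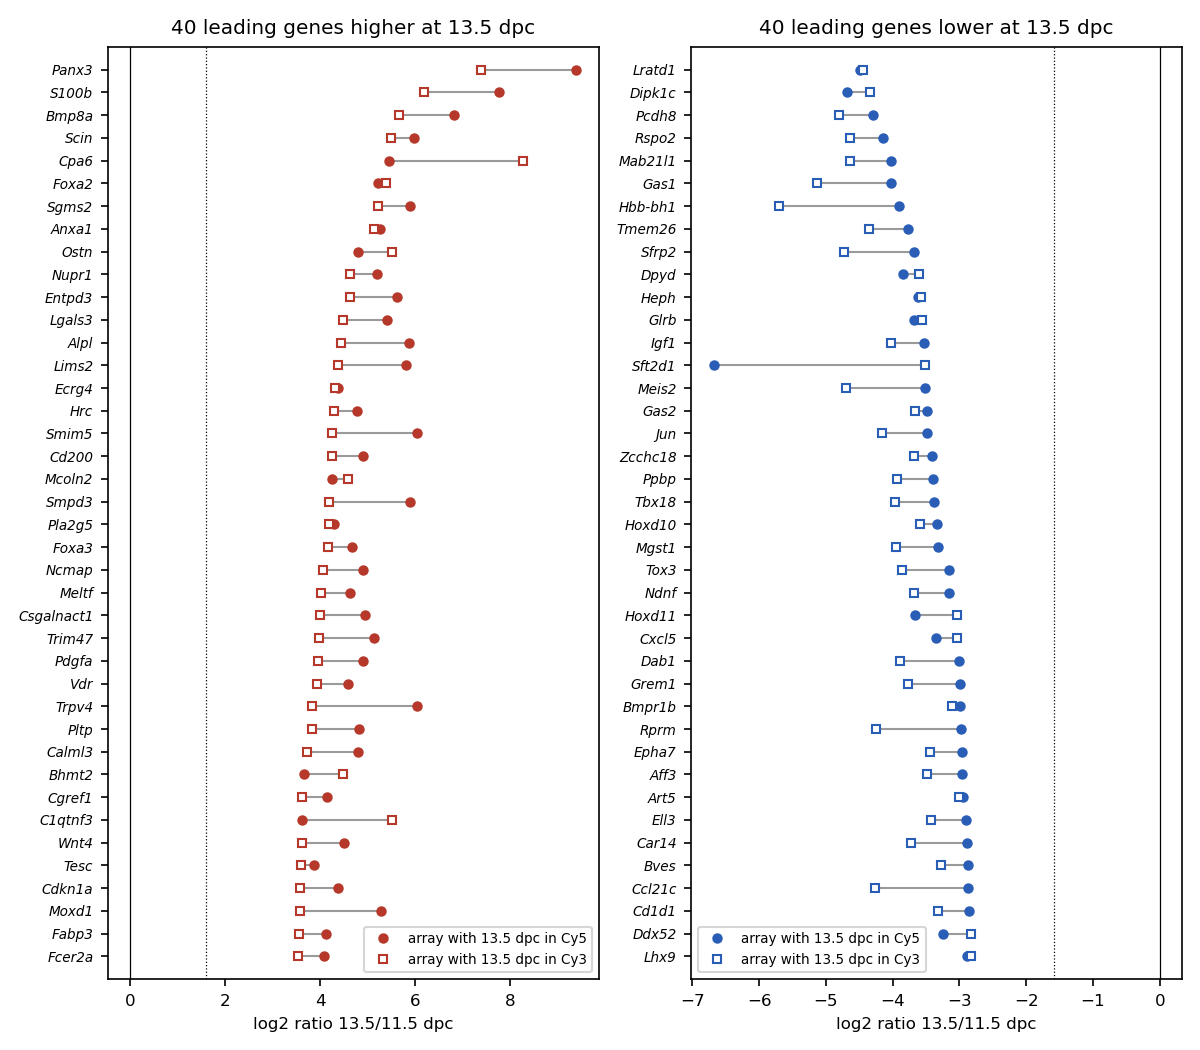
For the 40 genes outside the matrix list with the largest change in each direction, the log2 ratio of 13.5 over 11.5 dpc is shown on the array with 13.5 dpc in Cy5 (filled circle) and on the array with it in Cy3 (open square), in order of the smaller of both; the dotted line marks 3-fold. Panx3 leads the higher genes at 9.39 and 7.37 and Lratd1 the lower at -4.50 and -4.45, and Cpa6 and Sft2d1 have the widest gap between the arrays.

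Single members of the BMP and Wnt pathways moved in both directions, while the medians of both lists stayed near 0. Of 71 measured genes of the BMP, GDF and TGF-beta pathway 6 rose and 3 fell, with medians of 0.13 and -0.04. The risen were mostly ligands: Bmp8a had 6.80 and 5.65, Bmp7 4.02 and 3.28 over 11 spots, Bmp6 2.07 and 3.47, and Tgfb1 1.70 and 1.75 over 10 spots. The fallen were a receptor, a BMP antagonist and Gas1, which is also a member of the hedgehog list. Bmpr1b, a type I receptor of early condensations, had -2.98 and -3.11, Grem1, a secreted BMP antagonist, had -2.99 and -3.77, and Gas1, a co-receptor for hedgehog ligands, had -4.02 and -5.13. Fst, an activin antagonist, went the other way from Grem1, at 2.58 and 2.43. Gdf5, a joint-forming ligand, had -0.94 and -1.50.

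The Wnt pathway was divided in a like manner, with 4 risen and 3 fallen of 78 genes and medians of -0.05 and 0.02. The ligands Wnt4, at 4.49 and 3.61, and Wnt10b, at 2.33 and 2.97, rose, with the receptor Fzd9, at 3.19 and 2.37, and Notum, an enzyme that inactivates Wnt ligands, at 3.33 and 3.33. Rspo2, which amplifies Wnt signals in the bud, fell at -4.15 and -4.65. The secreted Wnt-binding proteins Sfrp2, at -3.68 and -4.73, and Frzb, at -1.98 and -2.80, fell with it.

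Of 20 hedgehog and PTHrP genes Ihh, Dhh and Pth1r rose and 1 fell, the co-receptor gene Gas1, at -4.02 and -5.13 as given above. Ptch1, a target and receptor of hedgehog signals, was above 0 at 1.38 and 1.81 without passing on the first array. Dhh, a hedgehog ligand known from the testis and nerve sheaths, had a mean of 2.98 over both arrays. Of 36 insulin and IGF pathway genes 2 rose, 3 fell, 15 were above 0 on both arrays and 12 below, and of 43 FGF pathway genes 2 rose, 1 fell, 21 were above 0 and 12 below. Igf1, a growth factor for many tissues, had -3.52 and -4.03, with all of its 11 spots past 3-fold, and Igfbp2, which binds it, had -3.05 and -2.72. Fgf10, the mesenchymal FGF that maintains the ectodermal ridge, fell at -1.61 and -1.60, though only 3 of its 10 spots passed by themselves, while Fgf18, a ligand of the perichondrium, rose at 1.79 and 1.62 and Fgf5 at 3.38 and 3.35. Kit, a receptor tyrosine kinase, had -2.76 and -2.73 over 10 spots, Bdnf, a neurotrophin, had -2.10 and -2.18, and the chemokine Cxcl12 had -2.34 and -2.59. Pdgfa, a growth factor for mesenchymal cells, stood at the other end, with 4.89 and 3.94.

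Among retinoic acid genes, enzymes of synthesis and of breakdown both rose. Of 20 measured 3 rose and 1 fell, with medians of 0.20 and 0.07. Aldh1a3, which makes retinoic acid, had 1.88 and 1.97, Cyp26a1, which breaks it down, had 2.26 and 2.41, and Stra6, which takes up retinol, had 1.67 and 1.70. Crabp2, which carries retinoic acid to its receptors, had -2.59 and -2.96.

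Several transcription factors of the early bud fell. Of 36 measured Hox genes 7 fell and 0 rose, and 22, or 61.1%, were below 0 on both arrays. Hoxd10 had -3.34 and -3.59, Hoxd11 -3.67 and -3.04, Hoxd4 -2.81 and -3.08, and Hoxa10 -2.27 and -2.89. The fallen genes were all of the A and D clusters, which pattern the limb, and Hoxd13, of the digits, was at -0.61 and -0.38. Hoxb5, at 1.25 and 1.58, lay on the other side without passing. Of 15 T-box genes Tbx18 fell, at -3.37 and -3.96, and Tbx3, of the bud margins, at -2.08 and -2.69, while the hind limb factor Tbx4 was at -1.33 and -1.52.

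The 100 other homeobox genes split, with 5 risen and 7 fallen. Meis2, a marker of the proximal bud, had -3.51 and -4.70, Isl1, needed to start the hind limb, had -2.58 and -3.24 over 10 spots, and Msx2, a target of BMP signals, had -1.92 and -2.31. Lhx9, a factor of the distal mesenchyme, had -2.88 and -2.82. The risen members included factors of skeletal cells. Nkx3-2, which acts in chondrocytes, had 3.15 and 3.09, Dlx5 had 2.54 and 1.81 and Dlx3 had 2.33 and 2.75. Nkx6-2, known for its part in the neural tube and in glia, had 2.95 and 3.13. Irx5 also rose, at 2.90 and 4.27, on a single spot of weak signal. Pitx1, which gives the hind limb its identity, had -0.19 on the first array and -3.51 on the second and was not settled.

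Forkhead factors were among the largest changes of all. Foxa2, which drives hypertrophic genes in cartilage and is better known from liver and lung, had 5.22 and 5.37, and all of its 10 spots passed, with 4.37 to 5.93 on the first array and 4.41 to 6.45 on the second. Foxa3, its close relative, had 4.66 and 4.16, while Foxa1 had -0.08 and 0.53 with weak signal, so that the 3 members of the subfamily did not move together. Foxd1 had 2.52 and 2.15, Foxo1 missed the line on the second array at 2.14 and 1.53, and of 39 forkhead genes 24, or 61.5%, were above 0 on both arrays and 0 fell. Klf4 and Klf2, Kruppel-like factors, had 4.58 and 3.53, and 2.79 and 2.15. Sox8 was the single Sox gene of 18 that rose, at 2.37 and 2.33, while Sox11, of progenitor cells, had -1.15 and -1.64, and its relative Sox4 a mean of -0.80 over both arrays. Maf and Mef2c, factors of chondrocyte maturation, had 2.65 and 2.44, and 1.89 and 2.31.

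**Figure D4:**
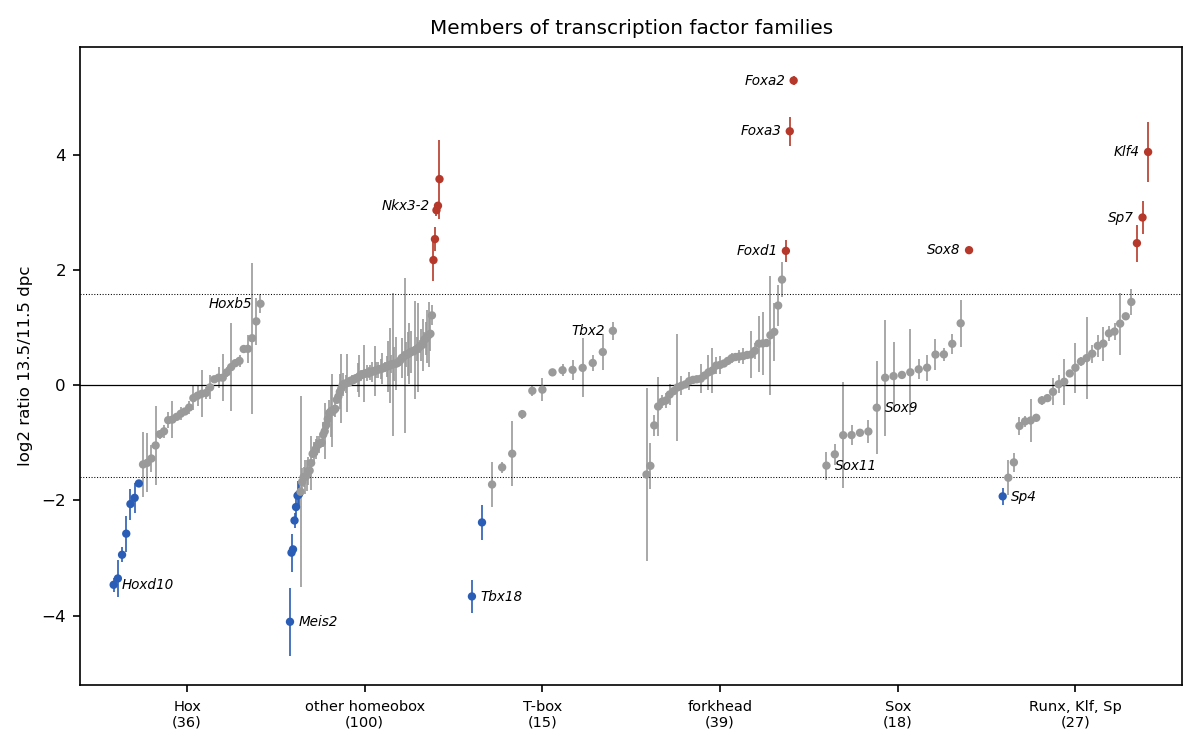
Each point is the mean log2 ratio of 13.5 over 11.5 dpc of 1 gene of a transcription factor family, ordered within the family, and the line through it joins its values on both arrays; the number of measured members stands under each family, genes that rose are red, genes that fell are blue and dotted lines mark 3-fold. Fallen genes are at the left of the Hox, homeobox and T-box families and risen genes at the right of the forkhead and Kruppel-like families, led by Foxa2 at 5.22 and 5.37.

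The immediate early genes, which stimuli switch on quickly, held members at both ends. Jun, a subunit of AP-1, fell at -3.48 and -4.16, and its 10 spots lay between -3.58 and -3.38 on the first array and between -4.22 and -4.01 on the second. Its partner Fos had 0.84 and 1.04, Junb had 0.49 and 0.08, and Egr1 had 1.69 and 1.52. Of 32 such genes 3 rose and 1 fell, and 19, or 59.4%, were above 0 on both arrays, with medians of 0.49 and 0.33.

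Zinc finger genes, the longest of the factor lists, were mostly below 0. Of 381 measured 19 fell and 3 rose, and 244, or 64.0%, were below 0 on both arrays, with medians of -0.42 and -0.53. Among the 321 genes with a Zfp symbol 13 fell and 216 were below 0 on both arrays. Osr2, a factor of joint and limb mesenchyme, had -2.67 and -4.09, and Osr1 -1.99 and -2.43. Sall3 had -2.50 and -2.09, and Zfp870, at -2.30 and -2.19, was one of 13 such genes with a Zfp symbol. The 3 that rose were Bcl6, a repressor, at 3.59 and 3.33, Prdm6, at 1.97 and 2.21, and Zfp385c, at 1.87 and 1.65. Zinc finger genes have close copies in the genome, and how far a probe reads more than 1 of them was not tested.

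Genes of cell division were mostly lower in the CA, by small steps. Of 46 genes of replication licensing and the fork 1 fell, 0 rose and 31, or 67.4%, were below 0 on both arrays, with 1 above, and the medians were -0.34 and -0.93. Of 55 genes of mitosis and the spindle checkpoint 3 fell and 36, or 65.5%, were below 0 on both, with medians of -0.49 and -0.86. Hells, a chromatin helicase of dividing cells, had -2.05 and -2.27, Top2a, the topoisomerase of mitotic chromosomes, had -1.94 and -1.98, Spc25, of the kinetochore, had -1.78 and -1.92, and Plk4, which duplicates centrioles, had -1.81 and -1.74. Pcna, the sliding clamp, had -0.86 and -1.90 and passed on the second array. Mki67 had -0.01 and -0.71, and Mybl2 and Foxm1, which switch on mitotic genes, were above 0 at 0.86 and 0.51, and 0.53 and 0.46.

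Of 36 genes for inhibitors of the cell cycle, D cyclins and the Rb family 3 rose and 1 fell, with medians of 0.06 and -0.24. The inhibitor genes Cdkn1a and Cdkn2b moved further on both arrays than the division genes named above. Cdkn1a, the p21 inhibitor, had 4.38 and 3.58, and all of its 10 spots passed, between 4.11 and 4.48 on the first array and between 3.52 and 3.67 on the second. Cdkn2b, the p15 inhibitor, had 3.48 and 2.93, Gadd45g had 2.85 and 1.94, and Cdkn2c had 1.85 and 1.53. Cdkn1c, the p57 inhibitor of chondrocytes, had 4.42 on the first array and -1.14 on the second, and its direction was not settled. Among the proteins that these inhibitors restrain, Cdk4 had -0.83 and -1.38 and Ccnd1 -0.39 and -1.03.

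Promoters of division genes held the CCAAT element more often than those of the fallen genes as a whole, as a description. Of the 74 genes of the replication and mitosis lists with a single start site 41, or 55.4%, held CCAAT within the 100 bases before it, against 21.8% of all genes, and 0 held TATAAA. Of the 4 division genes that fell, Spc25 has a pair of CCAAT elements and Top2a 3 of them and a GC box, while Hells holds a GC box alone and Plk4 holds neither CCAAT, TATA box nor GC box. The promoters of Spc25 and Top2a are printed for their CCAAT elements.
Spc25, chr2:69206214-69206313, minus strand: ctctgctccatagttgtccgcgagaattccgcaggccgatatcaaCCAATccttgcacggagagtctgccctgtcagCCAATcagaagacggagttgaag
Top2a, chr11:99024190-99024289, minus strand: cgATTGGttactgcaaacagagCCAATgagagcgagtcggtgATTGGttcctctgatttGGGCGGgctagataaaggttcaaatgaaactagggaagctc

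Genes that silence chromatin were mostly below 0 as well. Of 36 Polycomb, DNA methylation and deacetylase genes 3 fell, 0 rose and 24, or 66.7%, were below 0 on both arrays, with medians of -0.36 and -0.93. Ezh2, the methyltransferase of Polycomb complex PRC2, had -1.96 and -2.46, Hdac2 -2.82 and -1.67, and Cbx7, of PRC1, -1.72 and -1.89. The de novo DNA methyltransferases Dnmt3a, at -1.50 and -1.93, and Dnmt3b, at -1.47 and -1.87, passed on the second array alone. Ezh1, the other methyltransferase of the complex, had 0.92 and -0.08 with weak signal.

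Several lists of housekeeping function had the same small shift. Of 113 splicing factors and hnRNPs 71, or 62.8%, were below 0 on both arrays and 1 fell, and of 78 mitochondrial ribosomal proteins 48, or 61.5%, were below 0 and 0 fell. Of 26 tricarboxylic acid cycle genes 17, or 65.4%, were below 0 on both arrays, with medians of -0.32 and -0.72. Of 24 hypoxia genes 16, or 66.7%, were below 0 and 2 fell, the hypoxia factor Hif1a itself, at -1.87 and -2.13, and its hydroxylase Egln3, at -2.31 and -2.79. Of 47 genes of the primary cilium 30, or 63.8%, were below 0 and 4 fell, among them Ttc30b, of the transport trains, at -1.92 and -2.12, and Cc2d2a, of the transition zone, at -1.77 and -2.05. In each of these lists the second array gave the lower median, so that the size of the shift differed between the arrays although its sign did not. Each dye combination was on 1 array, so the part of the dye in this was not tested.

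Lists of the secretory side and of lipid synthesis had medians above the 0.26 of the olfactory and vomeronasal receptors on the first array. On the second array they lay near or below the 0.11 of those receptors. Of 43 genes for folding in the endoplasmic reticulum 25, or 58.1%, were above 0 on both arrays and 0 rose, with medians of 0.69 and 0.11, and Fkbp9, a prolyl isomerase, was the highest at 2.97 and 1.31. Of 30 genes of sterol and fatty acid synthesis 16 were above 0 on both, with medians of 0.58 and 0.16, led by the desaturase Fads2 at 1.87 and 1.47. Kdelr3, a receptor that returns escaped proteins to the reticulum, rose at 2.73 and 1.97, the single such member of 58 genes of vesicle coats and the Golgi. Of these genes 44.8% were above 0 on both arrays, beside 43.7% of the olfactory and vomeronasal receptors. Their medians of 0.48 and -0.03 had opposite signs. Among 55 lysosomal genes Ctsk, the cathepsin of osteoclasts, rose at 2.85 and 2.95, and Atp6v0a4, a proton pump subunit, at 2.82 and 3.30, while cathepsins of immune cells fell, Ctsc at -2.36 and -2.64 and Ctss at -1.87 and -1.96. Of 4 macrophage markers 1 fell and 3 were below 0 on both arrays, and the lowest had a mean of -2.13. Among them C1qa and C1qb read -0.40 and -0.30, and 0.17 and 0.31.

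**Figure D5:**
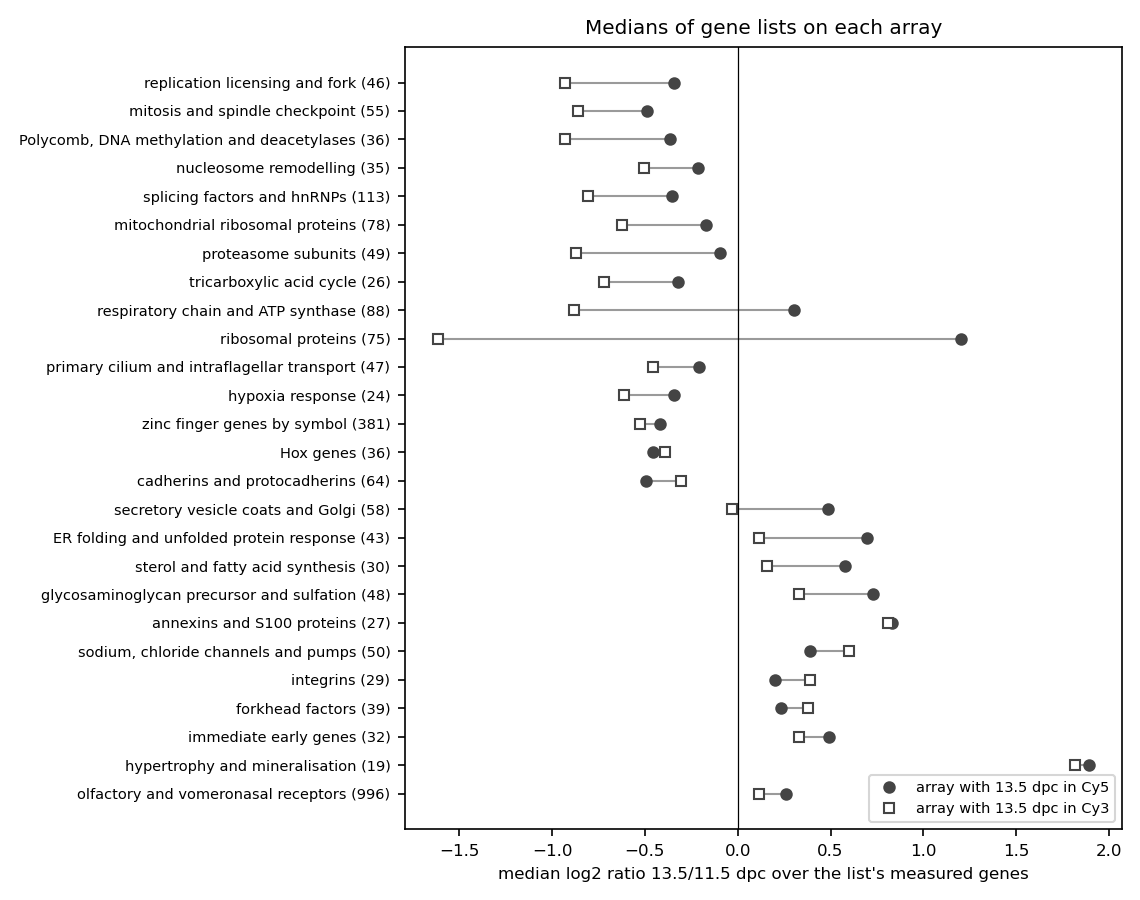
The median log2 ratio of 13.5 over 11.5 dpc over the measured genes of each list, whose number stands behind its name, is shown on the array with 13.5 dpc in Cy5 (filled circle) and on the array with it in Cy3 (open square). The replication, mitosis, Polycomb, nucleosome remodelling and splicing lists lie below 0 on both arrays, hypertrophy genes reach 1.89 and 1.82, and ribosomal proteins lie at 1.20 on one array and -1.62 on the other.

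Most red cell and platelet genes were lower in the CA. Hbb-bh1 and Hbb-y, the embryonic beta globins, had -3.91 and -5.71, and -2.65 and -3.98, and Hba-x, the embryonic alpha globin, had -2.59 and -3.73. Adult alpha globin Hba-a1 had -0.52 and -1.44, and adult beta globin Hbb-bt had 0.46 and -0.66. Platelet genes were with them, Ppbp, a chemokine of platelet granules, at -3.40 and -3.93 and Pf4, platelet factor 4, at -2.04 and -2.41. Of 24 red cell and platelet genes, put together after some of these values had been seen, 10 fell and 19 were below 0 on both arrays, and Gp1bb, of the platelet receptor for von Willebrand factor, rose at 2.29 and 2.04. Some globin genes have near-identical copies, as adult alpha globin does, and how far their probes share signal was not tested.

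Some single genes known from the nervous system passed the line, and they are named here after their values had been seen, with no count of such genes as a group. On the lower side Glrb, a glycine receptor subunit, had -3.68 and -3.56, Nnat -2.65 and -3.51, Dcx, a microtubule protein of migrating neurons, -2.08 and -2.23, and Crmp1, of growth cones, -2.29 and -2.84. On the upper side Mbp, myelin basic protein, had 3.57 and 3.31 over 12 spots, 11 of which passed, and Ncmap, a peripheral myelin protein, had 4.90 and 4.06. The Schwann cell markers Sox10, at 0.54 and 0.90, and Erbb3, at -0.65 and 0.19, did not pass.

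Among the other leading genes with a known role, Scin, which severs actin, rose at 5.97 and 5.48 and Gsn, its relative gelsolin, at 3.72 and 2.18. Lgals3, galectin-3 of maturing chondrocytes, had 5.41 and 4.47, Cd200, a surface protein that restrains myeloid cells, 4.90 and 4.25, and Entpd3, which splits extracellular ATP, 5.61 and 4.62. Lmna, the nuclear lamin of differentiated cells, had 3.14 and 2.31 over 3 spots. On the lower side Epha7, a guidance receptor, had -2.96 and -3.44, Dab1, an adaptor of reelin signals, -3.01 and -3.89, Mgst1, a glutathione transferase, -3.32 and -3.94, and Heph, a copper-dependent ferroxidase, -3.63 and -3.57. Tmsb10, which binds free actin, had -2.79 and -3.44, and Bves, a membrane protein of muscle and epithelia, -2.87 and -3.27. The pair of genes with the widest gap between arrays were Cpa6, a carboxypeptidase, at 5.45 and 8.28, and Sft2d1 at -6.68 and -3.52, both on 1 spot.

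Genes of the ribosome and the respiratory chain, which are abundant in most cells, had opposite signs on the arrays. Of 75 ribosomal protein genes 68 had opposite signs, and the medians were 1.20 on the first array and -1.62 on the second, so that the Cy5 signal was the higher one on both. Of 88 respiratory chain genes 55 had opposite signs, with medians of 0.30 and -0.88. The 10 genes outside the matrix list with opposite signs and the largest values included Rplp2, at 3.20 and -3.20, Rps16, at 2.88 and -3.50, and the mitochondrially encoded cytochrome oxidase gene COX2, at 3.24 and -3.33. Ran, a nuclear transport GTPase, at 2.63 and -3.15, and Insl5, an insulin-like peptide, at 2.85 and -3.50, were the others that encode no ribosomal protein. In all, 79 genes had opposite signs past 3-fold on both arrays, beside the 377 and 363 with the same sign.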

How the data were processed

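Values were the log2 Cy5 over Cy3 ratios that the authors deposited for 2-colour Agilent whole mouse genome arrays, 45220 spots each. The methods of the study describe GenePix quantification and print-tip loess, and the sources used here do not settle whether it was applied to these ratios, since the array medians are not 0. Spot intensities were not used here. Each array was centred on its median, sizes above 16 were dropped and signs were turned where 13.5 dpc carried Cy3. Of the spots 33653 had 1 gene symbol, 56 several and 11511 none, and 33517 matched the RefSeq table by gene ID. Spots of a gene were averaged. A spot was called weak if, on 2 or more of the 6 arrays, its value came within 0.0006 of the log2 that dividing one whole number by another, neither above 12, would give, which held for 15051 spots. The number of arrays limits the precision. No column of per-sample values lacked a sample.

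Genes at least 3-fold apart in the same direction on both arrays were counted, with no test. The 40 leading genes in each direction outside the matrix list, by the smaller size of both arrays, 10 of opposite sign, 3 at each side of the line, and members of the lists were named. The members and the 93 lists were chosen with earlier results of these data known, and 3 lists were added after values had been seen. Promoters came from RefSeq (GRCm38.p6). Python 3.11.15, numpy 2.4.6, pandas 2.3.3 and matplotlib 3.10.9 were used. Alternatives covered centring, scale, weak spots, the mean or median of spots, the fold, the other 4 arrays and each array alone.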

Additional observations from a re-analysis of the deposited data

How the results depend on the processing

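Rising and falling genes, 377 and 363 at 3-fold on both arrays, numbered 858 and 1172 at 2-fold, and the falling ones 150 at 4-fold and 551 when the mean of both arrays had to pass. With either array alone the counts ran from 717 to 911 for risen and from 610 to 819 for fallen genes, since a single array had to pass. Through the 12.5 dpc tissue 188 genes fell, and 64.2% of all calls were then risen genes, against 50.9%; the cause was not tested. Without centring 359 of the risen and 289 of the fallen genes kept their call, and without weak spots 363 and 344. The share of genes with the same sign on both arrays, 71.0% in the main setting, was 75.6% without weak spots. Through the 12.5 dpc tissue it dropped to 56.9%, so that the arrays shared a sign less often by that path. Of the values of the 80 leading genes under these alternatives 520 moved by no more than the SD of both arrays and 40 moved further. The sign changed in 0 of them. This was largely fixed by the choice of the genes, which all passed 3-fold the same way on both arrays. Either array alone always lies within that SD of the mean. Only 6 of the 40 risen and 13 of the 40 fallen leading genes had more than 1 spot, so a median of spots could not move the others. Of 96 lists, 30 had a median of the other sign under at least 1 alternative. Among them were the BMP, Wnt, T-box, lysosomal, ribosomal, respiratory and Golgi lists and that of cell cycle inhibitors and D cyclins. No paired analysis was possible because the replicate numbers stand for the dye combinations and each array already holds both pools. With 1 pool per age, differences between embryos were not measured.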

Other observations

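Xist, the RNA that silences an X chromosome in females, was lower in the 13.5 dpc pool, at -1.82 on the first array and -2.20 on the second over 4 spots. The Y-linked genes Eif2s3y, at 0.99 and 0.31, Uty, at -0.46 and -0.24, and Kdm5d, at 0.10 and -0.32, did not pass 3-fold. A further Y-linked gene did not pass either, but had the highest mean of the 5 genes of this list, 1.22. Of these 5 genes, Xist among them, 2 were above 0 on both arrays and 2 below. The sex of the embryos in either pool is not given in the sources used here, and its part in the results was not tested.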
